A study of Homo sapiens with 2 samples.

Results

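MCPH1 (microcephalin) and 7 other genes of primary microcephaly, ASPM, CDK5RAP2, CENPJ, STIL, WDR62, CEP152 and CEP135, were read from 2 arrays of SBC-3 cells after knockdown of HOTAIR, a long noncoding RNA. The group was chosen by a readout of these same arrays, the rise of about 4-fold that both spots of MCPH1 showed in #1 siHOTAIR-transfected cells, and the other 7 genes share with it the same inherited disorder. The values of MCPH1 between the arrays are therefore a description and support nothing further. Its members were found as non-control spots whose RefSeq accession mapped to the gene, which gave 12 probes with 17 spots for the 8 genes, of 24826 probes with 40647 spots for 19062 named genes. CENPJ is listed in the table of gene names under its newer symbol CPAP.

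SBC-3 is an adherent small-cell lung cancer (SCLC) cell line. The cells were transfected with 20 nmol/L of #1 siHOTAIR, an siRNA against HOTAIR, or of siGFP, the control siRNA, whose target is green fluorescent protein. The samples are called knockdown cells and control cells from here on. Cy3-labelled cRNA from the total RNA of each was put on 1 Agilent array, so each condition had 1 array and no replicate, no test between the conditions was possible, and no P-value was computed. A difference between the arrays cannot be told apart from a difference between the cultures or hybridizations. In the study, other siRNAs against HOTAIR lowered it as well, but only #1 siHOTAIR lowered proliferation and invasion. Only #1 siHOTAIR was put on an array, so an effect of its own sequence cannot be told apart from loss of HOTAIR. Fewer cells of a type and less RNA per cell cannot be told apart in these samples either.

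The antisense strand of #1 siHOTAIR, the strand meant to pair with HOTAIR, is shown because it defines the treated sample, with its seed (bases 2 to 8 from the 5′ end) in capitals.
#1 siHOTAIR antisense: uCUCUCUGuacucccguucuu

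The proteins of this group sit at the centrosome, the organelle made of a pair of centrioles and the pericentriolar material around them, or at the poles of the mitotic spindle. STIL, CENPJ, CEP152 and CEP135 act in the building of new centrioles, CDK5RAP2 anchors the complexes that nucleate microtubules in the pericentriolar material, and ASPM and WDR62 organize the spindle poles. MCPH1 differs from them in acting in the nucleus as well, where it restrains condensin II so that chromosomes do not condense too early, and where it takes part in the response to DNA damage. Inherited loss of any of these genes gives a brain that is small at birth, because neural progenitors divide too few times.

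Values are processed signals, an intensity in the units of the scanner, after subtraction of the background. Log2 ratios are of #1 siHOTAIR over siGFP, after division of each signal by the 75th percentile of that array, 650.3 for #1 siHOTAIR and 629.9 for siGFP. A probe counted as well above background if the software said so of at least 50% of its spots on the array. HOTAIR itself, the target, had 1 probe with 1 spot, with a signal of 108 in knockdown cells and 244 in control cells. Its log2 ratio was -1.22, with a measurement SD of 0.18. Before the background was taken away, the median pixel of this spot read 216 in knockdown cells and 346 in control cells. The local backgrounds were 63 and 67. The raw readings thus differed by a smaller fold than the processed ones, and no other background setting was run for HOTAIR. All measurement SDs given here come from probes with 10 spots of similar brightness, cover error within an array, and leave out the spread between cultures.

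MCPH1 had 1 probe, for the accession NM_024596, with 2 spots far apart on the slide. In row 11 the signal was 164 in knockdown cells and 33.5 in control cells. In row 100 it was 176 and 47.3. Both spots were high on the #1 siHOTAIR array and dim on the siGFP array, and the values did not overlap. The fold change was 4.75 for the spot in row 11 and 3.61 for the spot in row 100, with log2 ratios of 2.25 and 1.85. For the averaged probe the signals were 170 and 39.8, the log2 ratio 2.05 and the fold change 4.14, with a measurement SD of 0.39 on the log2 scale. The scanner software's own error estimate for the log2 ratio was 0.35 for the spot in row 11 and 0.28 for the spot in row 100.

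The siGFP reading of MCPH1 lay close to the limit of detection. The software called all 4 readings well above background, but the lowest signal of any spot called so was 28.6 on the siGFP array and 37.3 on the #1 siHOTAIR array. Before the background was taken away, the median pixel of the spot in row 11 read 273 in knockdown cells and 131.5 in control cells, over a local background of 65 on both. The spot in row 100 read 309.5 and 157, over local backgrounds of 64 and 67.5. The raw readings thus differed by less than the processed ones. The log2 ratio of MCPH1 was 0.97 from the signal without background correction. It was 1.08 with normexp correction, a method that models the background and adds an offset of 50. Both of these settings also used the median pixel of a spot in place of the processed signal. With the local background subtracted, again from the median pixel, the log2 ratio was 1.49. This setting was chosen after seeing the data. The fold change thus depended on how the signal and its background were taken, and the part of each was not tested.

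**Figure D1:**
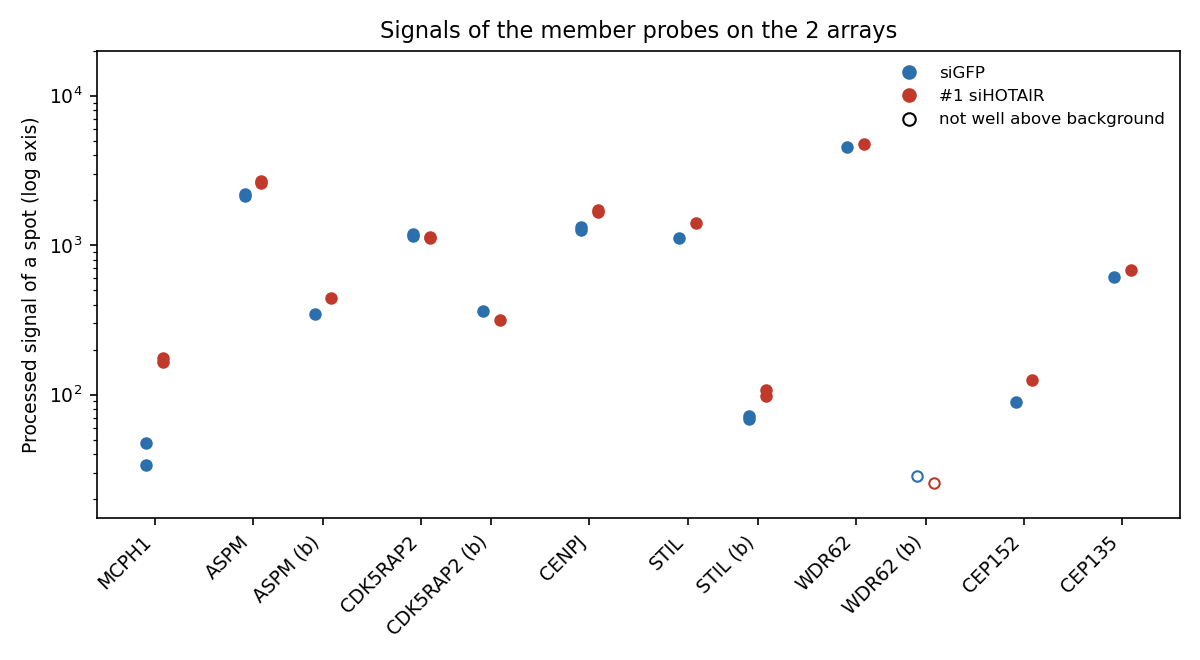
Processed signal of each spot (log axis) for the 12 probes of the 8 genes, in blue for siGFP and red for #1 siHOTAIR, with (b) for the dimmer probe of a gene and open circles for readings not well above background. MCPH1 is the gene whose readings stand clearly apart between the arrays, at 33.5 and 47.3 against 164 and 176; probes of different genes cannot be compared in level.

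On each array the pair of MCPH1 spots could be set against each other. On the log2 scale the spots differed by 0.10 on the #1 siHOTAIR array and by 0.50 on the siGFP array. Among 556 probes with 2 spots at its level on the #1 siHOTAIR array the median difference was 0.13 and the 95th percentile 0.43, and 59.9% of these pairs were wider apart than MCPH1. Among 235 such probes at its dimmer level on the siGFP array these values were 0.26 and 0.76, and 21.3% of the pairs were wider apart. The MCPH1 spots were therefore closer together than the median pair on the #1 siHOTAIR array and wider apart than it on the siGFP array.

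Both MCPH1 spots lay in the upper rows of the array, taken here as the first 6 of 16 blocks of 24 rows (37.5% of the 384 rows), where more spots read higher in knockdown cells. Among spots well above background on both arrays, 1.83% of 11766 in the upper rows read at least 2-fold higher and 1.79% at least 2-fold lower. In the lower rows the shares were 1.28% and 1.66% of 19608 spots. Of spots with a mean level over both arrays similar to MCPH1, 3.94% of 1651 in the upper rows and 2.90% of 2723 in the lower rows read at least 2-fold higher, and 3.27% and 2.39% at least 2-fold lower. Of these spots, 12 of 1651 in the upper rows and 5 of 2723 in the lower rows read at least as high a ratio as the lower MCPH1 spot, 2 of the 12 being the MCPH1 spots themselves, so that this count is fixed in part by their choice. Changed spots of both directions were thus more common in the upper rows, and at all levels the gap between the regions was wider for higher than for lower readings. Probes with 10 spots allowed a spot to be set against its own probe on the same array. On the #1 siHOTAIR array 1.22% of such spots in the upper rows and 0.832% in the lower rows were at least 2-fold off their probe's median, and on the siGFP array 1.67% and 1.51%. At the level that MCPH1 had on each array, this count in the upper rows was 0 of 281 spots on the #1 siHOTAIR array and 2 of 148 on the siGFP array, where it was 3 of 272 in the lower rows.

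The spots next to MCPH1 were read as well. Within 2 rows and 4 columns of the spot in row 11 there were 21 spots well above background on both arrays, with a median log2 ratio of 0.13 and a range of -0.58 to 1.14. Around the spot in row 100 there were 25, with a median of 0.12 and a range of -1.14 to 0.99. Of these, 1 of the 21 and 0 of the 25 were at least 2-fold higher. Since MCPH1 was chosen for its high ratio, its place above its neighbours is a description and has no bearing on a cause. Along the whole of row 11 the highest of 73 other spots was 1.29, and along row 100 the highest of 80 was 0.61. What part the position on the array had in the reading of MCPH1 was not tested beyond these values, and no value could be had for MCPH1 outside the upper rows.

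**Figure D2:**
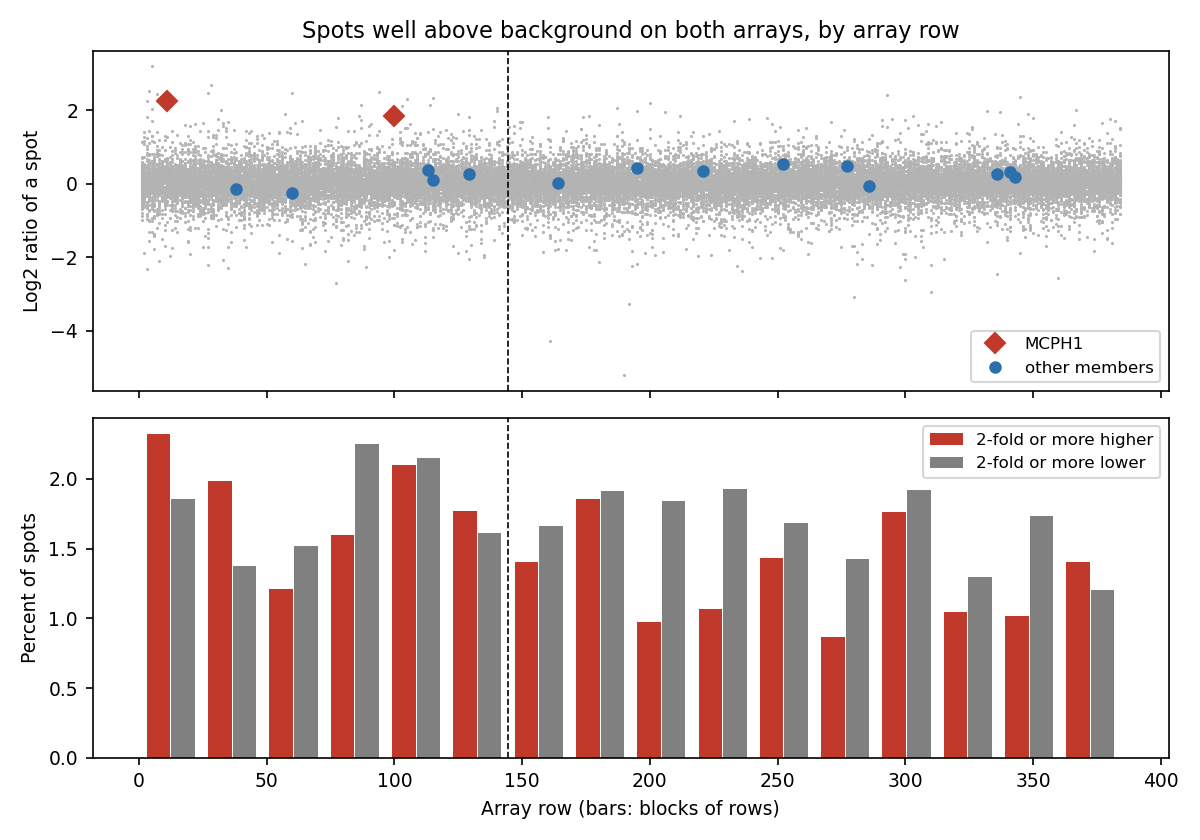
Upper panel, log2 ratio of every spot well above background on both arrays (grey) by array row, with the MCPH1 spots as red diamonds and the spots of the other members as blue circles; lower panel, percent of spots in blocks of 24 rows that read at least 2-fold higher (red) or lower (grey), with a dashed line at the end of the upper rows. The MCPH1 spots lie at 2.25 and 1.85 in rows 11 and 100, left of the line, and the other members' spots lie near 0 on both sides of it.

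MCPH1 was chosen for the rise of both its spots, so the counts of probes like it are background and support nothing about it. Of 4458 probes with 2 spots, all well above background on both arrays, 42 (0.942%) were at least 2-fold higher on both spots and 43 at least 2-fold lower. At 3-fold the counts were 6 higher and 10 lower. Where both spots lay in the upper rows, as for MCPH1, 10 of 643 probes (1.56%), MCPH1 among them, were 2-fold higher on both and 1 was lower. Where 1 spot did, 19 of 2047 were higher and 22 lower. Where neither did, 13 of 1768 (0.735%) were higher and 20 lower. Whether the split by direction differed between these classes was not tested.

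By the rule that names genes most like MCPH1, the nearest log2 ratios among probes with at least 2 spots on both arrays belonged to ATP2B4, CKB, OPA3, DNMT3B and VGF. This likeness is over a single ratio and says nothing of shared function. ATP2B4, a calcium pump of the plasma membrane, had a log2 ratio of 2.08 with signals of 245 in knockdown cells and 56.0 in control cells. CKB, the brain form of creatine kinase, had 2.00 with signals of 4331 and 1050. Its spots lay in rows 187 and 337, in the lower rows. OPA3, a mitochondrial protein, had 1.81, and VGF, a secreted neuropeptide precursor, had 1.78. DNMT3B, a DNA methyltransferase, had 1.79, with both spots in the upper rows, 13 and 114, as for MCPH1.

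ANGPT2, which encodes a ligand of the endothelial receptor TIE2 and lies within MCPH1 on the opposite strand, did not move with it. Its probe had 2 spots. In row 72 the signal was 44.9 in knockdown cells and 106 in control cells, and in row 374 it was 20.4 and 44.5. Neither spot was well above background on the #1 siHOTAIR array. Averaged over its spots, the gene was at least 1.90-fold lower by the bound used here, on the opposite side of MCPH1. That bound takes the dim average at 37.3, the lowest signal called well above background on that array. The spot in row 72 exceeded 37.3 without being called so, and a smaller fold is therefore possible. AGPAT5, an enzyme of phospholipid synthesis and the nearest neighbour with a named probe, had signals of 1284 and 1096 and a log2 ratio of 0.18.

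No other member reached a 2-fold change. The median log2 ratio of these 7 genes was 0.23, and 6 of the 7 were above 0, beside a median of 0.02 and 6807 of 13014 above 0 for all named genes compared. Of those 13014 genes, 2.74% were at least 2-fold higher and 3.41% at least 2-fold lower, and of the 24117 probes compared 3.30% (795) were higher and 4.10% (989) lower. These counts leave dim signals at their own level, and the balance of directions depended on that and on the scaling, with 572 probes higher and 498 lower with dim signals at their bound, and 993 higher and 799 lower with scaling to the spike-in RNA. Counted with MCPH1, 1 of the 8 was at least 2-fold higher and 0 were lower, a count that the choice of MCPH1 fixed and from which nothing is read. With scaling to the spike-in RNA, which moved the median of all probes on both arrays from 0.03 to 0.15, the median of the 7 genes was 0.35.

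Of the spindle pole members, ASPM gave the higher reading in knockdown cells on every spot. ASPM, which focuses the minus ends of spindle microtubules, had 2 probes. The probe with 2 spots had signals of 2674 and 2590 in knockdown cells and 2137 and 2212 in control cells. Those spots did not overlap between the arrays, and their averaged log2 ratio was 0.23, with a measurement SD of 0.06. The other probe, with 1 spot, had 446 and 348 and a log2 ratio of 0.31, with an SD of 0.11. All these ASPM spots lay in the lower rows, in rows 336, 343 and 341.

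WDR62, a scaffold of JNK signalling that is recruited to spindle poles, differed between the arrays by less than its measurement SD. Its brighter probe, for the accession NM_001083961, had a signal of 4786 in knockdown cells and 4538 in control cells. Its log2 ratio was 0.03 with an SD of 0.07, or 0.15 with scaling to the spike-in RNA. Its other probe, for the accession NM_173636, read 25.7 and 28.6, not well above background on either array, and gives no fold change.

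Of the centriole members, CENPJ, which elongates new centrioles, was higher in knockdown cells on both of its spots. Their signals were 1670 and 1719 in knockdown cells and 1254 and 1314 in control cells. The spots lay in rows 113 and 221, and gave log2 ratios of 0.37 and 0.34, close to each other in the upper and the lower rows. The averaged log2 ratio was 0.35, with an SD of 0.06.

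STIL, which recruits the centriole protein SAS-6, had 2 probes that both read higher. The brighter one, with 1 spot in row 129, had signals of 1397 in knockdown cells and 1122 in control cells, and its log2 ratio was 0.27 with an SD of 0.09, or 0.18 without background correction. The dimmer one had 108 and 98.0 against 71.7 and 68.2 on its 2 spots, in rows 252 and 277, and an averaged log2 ratio of 0.51 with an SD of 0.16. Its spots did not overlap between the arrays.

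CEP152, which brings the kinase PLK4 to the parent centriole, had 1 spot, with signals of 125 in knockdown cells and 89.4 in control cells. Its log2 ratio of 0.44 was within 2 times the measurement SD of 0.23, and it was 0.19 with normexp correction and 0.20 without background correction. CEP135, a part of the centriole's cartwheel, had 1 spot with 683 and 611 and a log2 ratio of 0.12, with an SD of 0.11, which ran from 0.01 with normexp correction to 0.24 with scaling to the spike-in RNA. Neither gene had a spot to check its reading against.

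CDK5RAP2 was the member with lower readings. Its probe with 2 spots had signals of 1112 and 1137 in knockdown cells and 1187 and 1152 in control cells, which did not overlap but lay close together. Its averaged log2 ratio was -0.10, with an SD of 0.06. The other probe, with 1 spot, had 318 and 363 and a log2 ratio of -0.24, with an SD of 0.11. That spot lay in the upper rows, in row 60. Of the pair, the spot in row 38, also in the upper rows, gave -0.14, and the spot in row 286, outside them, gave -0.06. The sign of the CDK5RAP2 ratio turned with scaling to the spike-in RNA, to 0.02.

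In order of the log2 ratio of the brightest probe, the members ran from MCPH1 at 2.05 through CEP152 at 0.44, CENPJ at 0.35, STIL at 0.27, ASPM at 0.23, CEP135 at 0.12 and WDR62 at 0.03 to CDK5RAP2 at -0.10. MCPH1 stood 1.61 above the next gene. From CEP152 to CDK5RAP2, neighbours in this order differed by 0.04 to 0.13. No such gap was more than 1.38 times the measurement SD of the difference, so the order of neighbours is not settled by these spots. Some genes further apart in the order, such as CENPJ and CDK5RAP2 with an SD of 0.06 each, differed by more than their measurement SDs. Ratios of ASPM, CENPJ and STIL were more than 2 times their measurement SD from 0, as were those of 6869 of all 13014 genes, so that distance is common between these arrays.

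**Figure D3:**
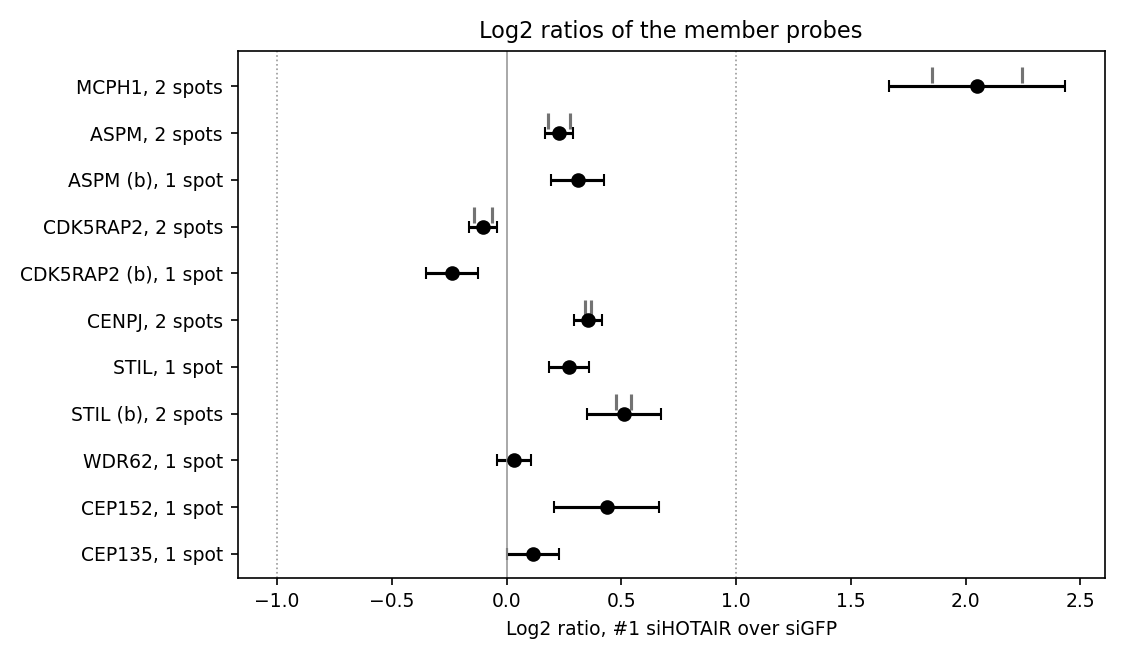
Log2 ratio of #1 siHOTAIR over siGFP for the 11 member probes well above background, with bars of 1 measurement SD, grey ticks for single spots of probes with 2 spots, and dotted lines at a 2-fold change. MCPH1 lies at 2.05 and every other probe lies between -0.24 and 0.51, inside the dotted lines.

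The promoters of ASPM, STIL and WDR62 are shown because these members share a feature that the choice of genes did not use, repeated CCAAT boxes, the binding motif of the factor NF-Y that is found upstream of many cell cycle genes. RefSeq promoter windows on GRCh38.p14 were matched for 7 of the 8 members, all but MCPH1, and the 250 bases before each start site were searched on both strands. CCAAT occurred 4 times in ASPM, at 134, 90, 65 and 25 bases before the start site, and 3 times each in STIL, at 171, 138 and 125 bases, and in WDR62, at 94, 62 and 37 bases. CEP152 held it 2 times, at 242 and 225 bases, and CDK5RAP2, CENPJ and CEP135 did not hold it. Of 35116 windows of all genes, 32.0% held CCAAT at least once and 2.93% at least 3 times. The 180 bases before the start site are given 5′ to 3′ on the gene's strand, with CCAAT, or ATTGG where it reads on the other strand, in capitals.
ASPM, chr1:197146670-197146849, minus strand: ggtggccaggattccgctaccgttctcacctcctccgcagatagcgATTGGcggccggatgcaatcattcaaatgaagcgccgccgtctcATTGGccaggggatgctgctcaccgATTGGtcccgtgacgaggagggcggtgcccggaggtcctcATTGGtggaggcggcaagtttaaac
STIL, chr1:47314148-47314327, minus strand: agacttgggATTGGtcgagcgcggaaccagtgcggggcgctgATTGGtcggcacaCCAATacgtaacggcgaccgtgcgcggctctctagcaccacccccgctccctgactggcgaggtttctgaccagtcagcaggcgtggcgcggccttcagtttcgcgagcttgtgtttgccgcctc
WDR62, chr19:36054717-36054896, plus strand: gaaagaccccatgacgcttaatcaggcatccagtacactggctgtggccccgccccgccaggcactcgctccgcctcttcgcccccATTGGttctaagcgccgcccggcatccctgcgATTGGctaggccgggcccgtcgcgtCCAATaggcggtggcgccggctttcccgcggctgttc

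The letters are a description and not a site of binding. The log2 ratios of the members that hold CCAAT were 0.23 for ASPM, 0.27 for STIL, 0.03 for WDR62 and 0.44 for CEP152. TTTGAA, the core of the cell cycle element CHR, was found in ASPM, at 113 bases, and in CEP152, at 179 bases, and in 13.3% of all windows. GGGCGG, the GC box, was found in 5 of the 7 members and in 42.6% of all windows. The E2F letters TTTCCCGC, TTTGGCGC or TTTCGCGC were found in WDR62, at 16 bases, and in 2.32% of all windows. No motif searched contains another.

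Other genes of the same biology were read from lists fixed by function. Beside each list stand all named genes compared, of which 2.74% were at least 2-fold higher, 3.41% at least 2-fold lower and 6807 of 13014 above 0. Of 33 other genes of inherited microcephaly, all were compared and 0 changed at least 2-fold in either direction. Their median log2 ratio was 0.00, or 0.12 with scaling to the spike-in RNA, with 17 above 0. The lowest on both arrays were WDFY3, an autophagy adaptor, at -0.49, and ATR, the kinase of replication stress, at -0.44. The highest were NBN, of the complex that senses DNA breaks, at 0.62, and TUBGCP6, a subunit of the γ-tubulin ring complex, at 0.87, read from 1 spot with signals of 467 and 247.

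Of 40 genes of centriole duplication and the pericentriolar material, 39 were compared, SPICE1 being well above background on neither array. None changed at least 2-fold, 17 were above 0, and the median was -0.03, which scaling to the spike-in RNA turned to 0.09. CETN3, a calcium-binding protein of centrioles, was lowest at -0.75 on 2 spots averaging 398 in knockdown cells and 646 in control cells. POC1A, which stabilizes centrioles, followed at -0.48. TUBGCP6 and, at 0.52, TUBGCP4 of the same ring complex were highest. The centriole members CENPJ, STIL, CEP152 and CEP135 lay above the median of this list.

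Of 26 spindle pole genes, 25 were compared and HAUS7 had no matched probe. The list had 21 genes above 0, beside 6807 of 13014 for all named genes. Its median was 0.18, or 0.30 by the spike-in RNA, and no scaling took it below 0. Of its genes 1 was at least 2-fold higher, beside 2.74% of all named genes. HAUS3, a subunit of the augmin complex that branches microtubules, was at least 2-fold higher, with a log2 ratio of 1.11 and signals of 191 and 85.4 on 1 spot. That spot lay in the upper rows, in row 87, and with normexp correction, without background correction or outside the upper rows no gene of the list changed 2-fold. CKAP5, a microtubule polymerase, had 0.53. HMMR, a receptor for hyaluronan that also sits on spindles, was lowest at -0.77, with signals of 2674 and 4428, followed by CDK1, the mitotic kinase, at -0.38 on 9 spots.

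The nuclear partners of MCPH1 were read from the condensins and from the DNA damage response. Of 10 condensin and condensation genes, 0 changed at least 2-fold, 7 were above 0 and the median was 0.08, or 0.20 with scaling to the spike-in RNA and 0.02 outside the upper rows. TOP2A, the topoisomerase that untangles sister chromatids, was highest at 0.70 on 10 spots with a mean signal of 925 in knockdown cells and 552 in control cells, and NCAPG, of condensin I, had 0.16. NCAPH2, a subunit of condensin II, was lowest at -0.15, and SMC4, shared by both condensins, had -0.08. NCAPH was well above background on the #1 siHOTAIR array only, at 46.4 against 30.1. Its log2 ratio was at least 0.58 by the bound used here, with a measurement SD of 0.54, about as large.

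Of 19 DNA damage genes, 0 changed at least 2-fold, 10 were above 0 and the median was 0.03, or 0.15 with scaling to the spike-in RNA and -0.01 outside the upper rows. BTRC, a ubiquitin ligase subunit, had a log2 ratio of 0.85 on 2 spots, with mean signals of 400.2 and 215. ATM, the kinase of DNA breaks, had 0.78 with 596 and 337. ATR, at -0.44, and H2AX, the histone variant that marks breaks, at -0.43, were lowest. The kinases ATM and ATR thus read on opposite sides of 0.

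**Figure D4:**
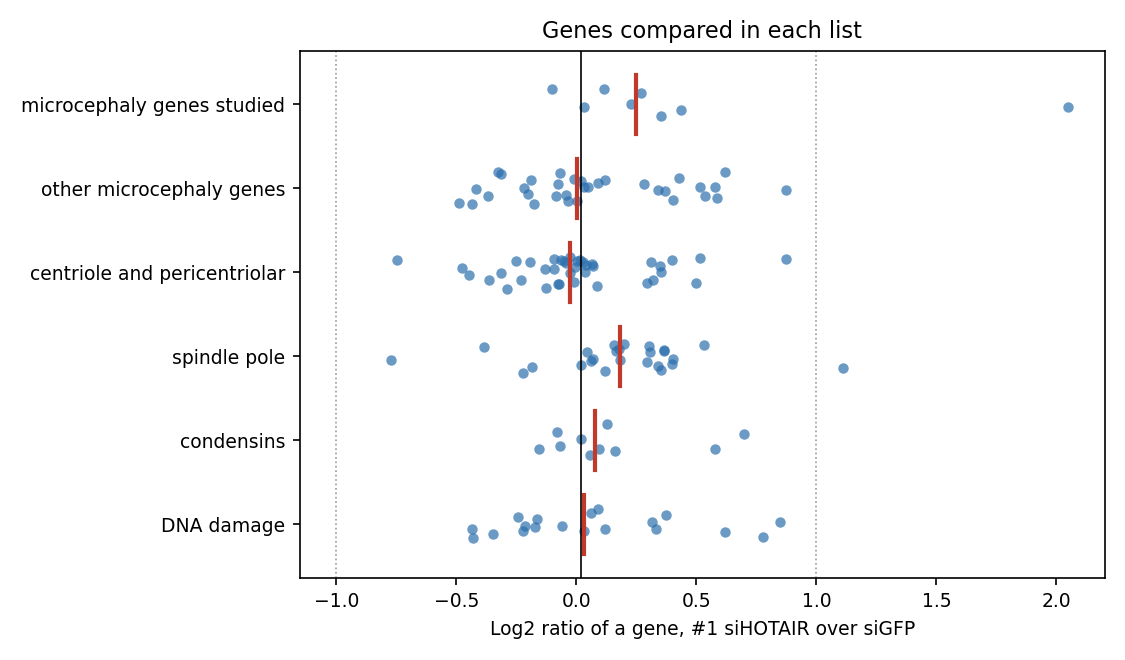
Log2 ratio of each gene compared in the 8 microcephaly genes and 5 related lists (points, jittered vertically), with list medians in red, the median of all named genes as a black line and a 2-fold change as dotted lines. MCPH1 at 2.05 and HAUS3 at 1.11 lie beyond the dotted line, and the list medians lie between -0.03 and 0.25.

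The identity of the cells was read from fixed markers on the same arrays. The SCLC markers were read one by one. DLL3, a Notch ligand common in SCLC, had signals of 679 in knockdown cells and 570 in control cells, and the lineage factor NEUROD1 had 213 and 372. YAP1, the marker of a subtype with few neuroendocrine features, had 6522 and 6750. INSM1, POU2F3 and SYP were well above background on neither array, while ENO2, an enzyme of neuroendocrine cells, had 620.2 and 770.1, so the label of SCLC was met by some of its markers only. CHGA, a granule protein, was well above background on the #1 siHOTAIR array only, and was at least 2.44-fold higher. The granule protein CHGB, with 27.9 and 7.43, and the adhesion molecule NCAM1, with 25.5 and 7.20, were also well above background in knockdown cells only, but too dim for a bound on the fold. Keratins KRT8 and KRT18 and vimentin (VIM) were well above background on both arrays, CDH1 on neither. EPCAM, an epithelial adhesion molecule, was so in control cells only, with 9.19 in knockdown cells and 25.1 in control cells, again too dim for a bound.

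Among markers of other cell types, PECAM1 of endothelium was well above background on neither array, while PTPRC of leukocytes had 106 in knockdown cells and 61.0 in control cells on 1 spot. COL1A1, the collagen of mesenchyme, had 832 and 414, a log2 ratio of 0.96, while VIM, also a marker of mesenchyme, had a log2 ratio of 0.11. SFTPC of alveolar type II cells had 41.2 and 46.2, close to the limit. PTPRC and COL1A1 were higher on the same array as MCPH1, and their part in its reading was not tested.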

How the data were processed

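SBC-3 cells were profiled on one-colour Agilent arrays, 1 for #1 siHOTAIR and 1 for siGFP. The authors deposited the output of Agilent Feature Extraction 10.10.1.1. Its processed signal is, as deposited, an intensity with the background subtracted and trends across the slide removed, not normalized between arrays. Conditions were taken from the sample labels.

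Processed signals were taken to log2 and the 75th percentile of the non-control spots of the same array was subtracted. Of 58717 such spots, the software marked 393 and 375 as outliers, which were left out, and 0 as saturated, and it called 55.5% and 58.3% well above background. Log2 values were averaged over the spots of a probe. Of 42402 probes, 24117 passed as well above background on 1 array or both and were compared. A change was called at 2-fold or more. For a probe dim on 1 array, that side was raised to the lowest signal called well above background there, unless its own signal exceeded it, and such folds carry the words at least. Counts of calls and list medians leave dim signals at their own level. A gene was represented by its brightest probe. The measurement SD came from probes with 10 spots in 6 levels of signal. The number of arrays limits the precision.

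Accessions were matched without versions to RefSeq names of GRCh38.p14 (96.8% of probes with an NM accession had a name). Promoter windows came from RefSeq on the same build, and the siRNA strand from the study's supplement. Python 3.11.15 and R 4.3.3 with limma 3.58.1 were used. The calling of changes was tested on simulated data. The members and lists were chosen with earlier results of these data known. Named genes were all members with every probe, the highest 2 and lowest 2 genes of each list, every list gene changed 2-fold, the 5 probes nearest to MCPH1, its neighbours and HOTAIR. Alternatives were other scalings, normexp correction and the signal without background correction (both from the median pixel of a spot), the value table of the series (floor of 10), other filters and thresholds, dim signals at their bound, the median over probes of a gene, and spots outside the upper rows. The median pixel less its local background, and single MCPH1 spots, were added after seeing the data. A marker of the SCLC list is not reported here.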

Additional observations from a re-analysis of the deposited data

How the results depend on the processing

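The log2 ratio of MCPH1 was above 0 under every setting run, from 0.97 to 2.25. It was 1.08 with normexp correction, 0.97 without background correction and 1.49 with the local background subtracted, chosen after seeing the data. By construction, the first and second of these settings leave more background in the dim siGFP signal. All of these settings, the third included, start from the median pixel of a spot, and the part of each choice was not tested. For the third setting the cause was not tested either. The spot in row 11 alone gave 2.25 and the spot in row 100 alone 1.85. Outside the upper rows there was no MCPH1 value, since both spots lie within them. The median of the other members ran from 0.18 to 0.35, the latter with spike-in scaling, and was above 0 in all 14 settings. The count of members changed 2-fold was 0 without background correction and 0 outside the upper rows. CDK5RAP2 turned to 0.02 with spike-in scaling. Probes at least 2-fold higher numbered 227 with normexp correction, 173 without background correction, 313 with a stricter filter, 1933 with no filter, 358 outside the upper rows, 2050 at 1.5-fold and 377 at 3-fold. Probes lower numbered 187, 154, 317, 1866, 549, 2348 and 411 under the same settings, and 498 with dim signals at their bound, where 572 were higher. With spike-in scaling 993 were higher and 799 lower. Of 155 log2 ratios of the 7 other members and medians of the 5 lists, 137 moved by less than the measurement SD and 18 by more. The SD used for a list median was the median SD of its single genes. Removing the filter, the stricter filter, keeping outlier spots and dim signals at their bound left the 7 members exactly as they were. The count of 137 is therefore no measure of how firm the values are. Of 75 counts of list genes changed 2-fold, 9 moved, among them that of the spindle pole genes, from 1 to 0 with normexp correction, without background correction, outside the upper rows and at 3-fold. No paired analysis was possible because each condition had 1 array, and no replicate could be left out. Signal over background limits, among others, MCPH1, ANGPT2, HOTAIR, CEP152, HAUS3, NCAPH and the dimmer probes of STIL and WDR62.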
